A study of Mus musculus with 2 samples.

Results

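The G1 regulators described here are 10 genes that control the decision of a cell to leave G1 and copy its DNA. They were chosen by name: the D-type cyclins Ccnd1, Ccnd2 and Ccnd3, their kinases Cdk4 and Cdk6, the E-type cyclins Ccne1 and Ccne2, and the inhibitors Cdkn1a, Cdkn1b and Cdkn2c. All 10 were among the 16388 genes measured at both stages. The study profiled single cells of the second heart field, the mesodermal progenitor pool that adds cells to both ends of the embryonic heart tube. The mice were wild type, and the embryos were taken at embryonic day E10.5 or E9.5, with 1 sample per stage. Each sample was dissected into positions that the labels tie to the cell barcode suffix. At E10.5 there were 560 posterior, 331 middle, 45 anterior and 31 outflow tract cells, against 418 posterior, 61 middle and 54 anterior cells at E9.5. The labels call all cells Osr1+, and every cell held at least 1 count of Osr1, a transcription factor of the posterior second heart field. How that selection was made, the strain, and whether embryos were pooled were not given in the sources used here.

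As background, D-type cyclins bind Cdk4 or Cdk6 in response to growth signals, and the complexes phosphorylate the retinoblastoma proteins. That phosphorylation frees E2F transcription factors, which switch on the E-type cyclins. Cyclin E with the kinase Cdk2 then drives entry into S phase. The Cip/Kip inhibitors, which include Cdkn1a, Cdkn1b and Cdkn1c, bind cyclin-kinase complexes, while the INK4 inhibitors, which include Cdkn2c and Cdkn2d, bind Cdk4 and Cdk6 alone. In the posterior second heart field, Gli1 is a transcription factor induced by Hedgehog signals, and Gata4 is a transcription factor of cardiac and other mesodermal progenitors.

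The values are counts of unique molecular identifiers (UMIs), each of which marks 1 captured RNA molecule. Totals differed between the stages, with 5940977 UMIs at E10.5 and 16548509 at E9.5; the median cell had 5371 at E10.5 and 30208 at E9.5. Levels are therefore given as counts per 1000000 UMIs (CPM) of a position library, that is, of the summed cells with 1 barcode suffix. In such sums, fewer cells with a gene and less RNA of it per cell cannot be told apart. Intervals in parentheses are exact 95% Poisson intervals on counts, or exact conditional intervals on ratios of counts, and cover counting error only. Xist was detected in 93.4% of cells at E10.5 and 0.188% at E9.5, so stage cannot be told apart from the sex of the embryos or from depth. One barcode was shared between position libraries at E10.5 and none at E9.5. The 10 second heart field markers, all present in the files, summed to between 276 CPM (anterior) and 813 CPM (posterior) at E10.5, and to between 582 CPM (anterior) and 810 CPM (posterior) at E9.5. Tbx5 was at 0 counts in the anterior library of each stage and in the outflow tract, and Gata4 was at 0 in the anterior and outflow tract libraries of E10.5. Markers of other cell types were present as well. The 9 endoderm or epithelium markers reached a sum of 1457 CPM in anterior cells of E9.5, and the 7 measured cardiomyocyte markers reached 2892 CPM in posterior cells of E9.5. The 6 erythroid markers summed to between 956 CPM (outflow tract) and 5226 CPM (middle) at E10.5, and to between 33.7 CPM (middle) and 143 CPM (anterior) at E9.5. The 4 hepatoblast markers reached 315 CPM in posterior cells of E10.5.

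Ccnd2, cyclin D2, was highest in the posterior library at each stage. The level was 660.0 CPM (633 to 688) in the posterior, 340.5 CPM in the middle, 193 CPM (143 to 255) in the anterior and 432 CPM in the outflow tract at E10.5. At E9.5 it was 458 CPM in the posterior, 378 CPM in the middle and 357 CPM in the anterior. In the order of the 7 libraries, 2 neighbouring pairs had intervals that did not overlap: the E10.5 posterior stood above all other libraries and the E10.5 anterior below them all. Posterior over anterior gave a ratio of 3.42 (2.58 to 4.64) at E10.5 and 1.28 (1.17 to 1.41) at E9.5. The gene lies at chr6:127125162-127152193 on the minus strand (GRCm38, the assembly also called mm10, as are all gene positions here).

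Ccnd1, cyclin D1 (chr7:144929931-144939925, minus strand), did not keep 1 order of positions. It stood at 149 CPM (137 to 163) in the posterior, 113 CPM in the middle, 102 CPM in the anterior and 214 CPM (154 to 289) in the outflow tract at E10.5. At E9.5 it stood at 109.5 CPM (104 to 115) in the posterior, 145 CPM (127 to 165) in the middle and 119 CPM in the anterior. No 2 neighbours in the order of the 7 libraries had separate intervals, although the posterior lay above the middle at E10.5 and below it at E9.5. The outflow tract value, the highest of the 7, rested on 42 counts in 31 cells.

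Ccnd3, cyclin D3 (chr17:47505051-47599691, plus strand), was the most even of the D cyclins. Its level was 136 CPM in the posterior, 116 CPM in the middle, 102 CPM in the anterior and 142 CPM in the outflow tract at E10.5. The E9.5 libraries held 158 CPM in the posterior, 139 CPM in the middle and 156 CPM in the anterior. Neighbouring libraries overlapped throughout.

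**Figure D1:**
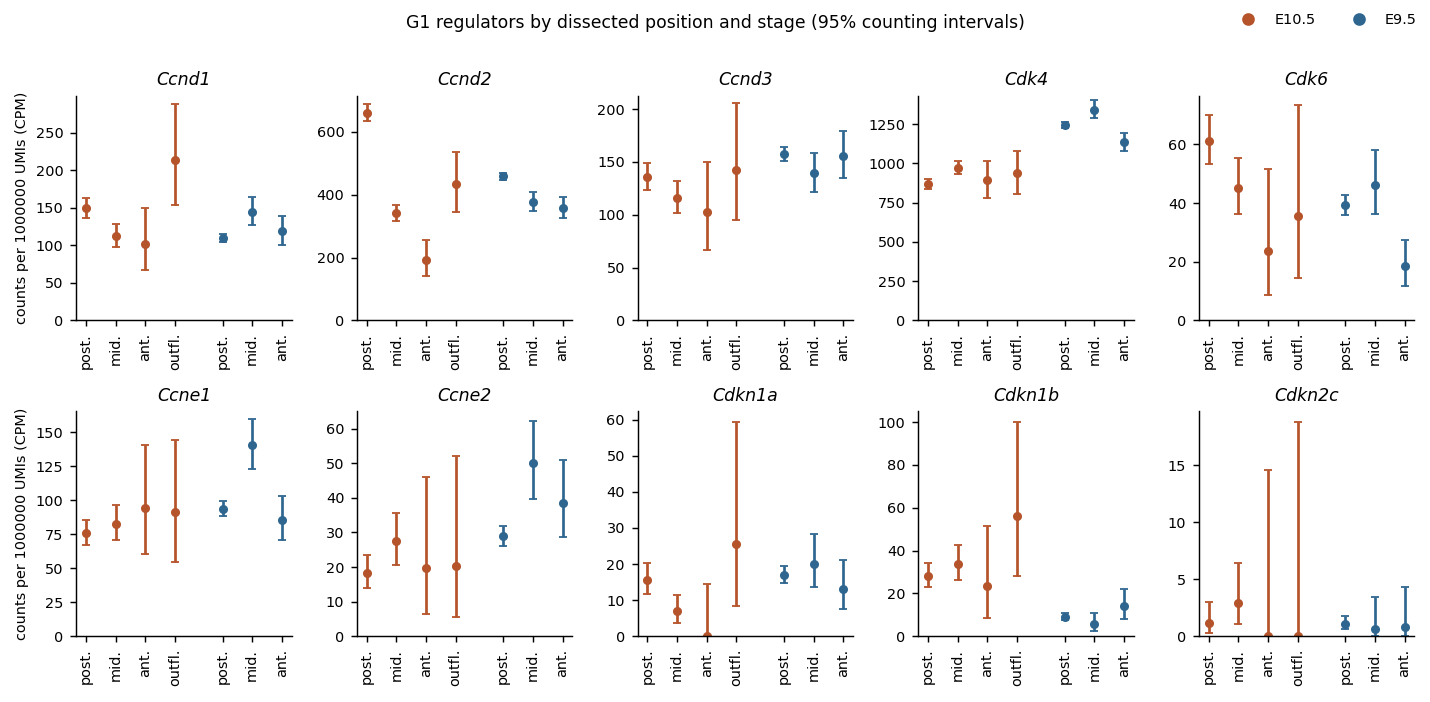
Level of each G1 regulator in CPM (vertical axes, linear from 0) in the position libraries of E10.5 (posterior, middle, anterior, outflow tract) and E9.5 (posterior, middle, anterior). Points are library sums and bars exact 95% counting intervals; Ccnd2 peaks in the E10.5 posterior library at 660.0 CPM, and Cdk4 lies lower in every E10.5 library than in every E9.5 library.

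Cdk4, the main D-cyclin kinase of many tissues (chr10:127063534-127067920, plus strand), had 868 CPM (837 to 900) in the posterior, 973 CPM (931 to 1017) in the middle, 894 CPM in the anterior and 936 CPM in the outflow tract at E10.5. At E9.5 it had 1244 CPM (1225 to 1263) in the posterior, 1343 CPM (1287 to 1401) in the middle and 1137 CPM (1080 to 1197) in the anterior. All 4 libraries of E10.5 lay below all 3 of E9.5. Their intervals were separate except that of the small outflow tract library (806 to 1081), which reached that of the E9.5 anterior.

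Cdk6, the second D-cyclin kinase (chr5:3341485-3531008, plus strand), was lowest in the anterior among the 3 positions dissected at both stages. It had 61.2 CPM (53.2 to 70.0) in the posterior, 45.1 CPM in the middle, 23.6 CPM (8.67 to 51.4) in the anterior and 35.6 CPM in the outflow tract at E10.5. At E9.5 it had 39.3 CPM in the posterior, 46.2 CPM in the middle and 18.5 CPM (11.9 to 27.6) in the anterior. The anterior values rested on 6 counts at E10.5 and 24 counts at E9.5.

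Of the 10 genes, 7 had an entry in the promoter table (RefSeq, GRCm38.p6); Ccnd1, Ccnd2 and Ccne2 had none. The 250 bases upstream of the annotated starts of the kinases are shown because these partners of the D cyclins differed in their relation to stage, with Cdk4 lower at E10.5 at every position and Cdk6 not. Capitals mark CACGTG, the E-box read by Myc and related factors, in both. In Cdk6 they also mark TTTTACGC, a match to TTTNNCGC. That pattern is a loose form of the E2F motif in which N is any base. The Cdk4 window is chr10:127063285-127063534 and the Cdk6 window chr5:3343643-3343892, both on the plus strand and written 5′ to 3′. The Cdk4 window ends at the start of the gene position given above. The Cdk6 window lies inside the gene position given above, because the RefSeq start used for it is further downstream.
Cdk4: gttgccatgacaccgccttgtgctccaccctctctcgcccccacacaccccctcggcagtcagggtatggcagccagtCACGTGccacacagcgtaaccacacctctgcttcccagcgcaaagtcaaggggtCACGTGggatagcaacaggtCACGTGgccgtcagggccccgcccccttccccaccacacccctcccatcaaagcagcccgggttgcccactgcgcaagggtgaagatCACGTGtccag
Cdk6: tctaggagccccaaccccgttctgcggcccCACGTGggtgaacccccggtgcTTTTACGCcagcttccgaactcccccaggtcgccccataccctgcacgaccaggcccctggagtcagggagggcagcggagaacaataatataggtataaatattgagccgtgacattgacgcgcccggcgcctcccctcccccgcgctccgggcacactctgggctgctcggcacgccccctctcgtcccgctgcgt
Motifs were searched on both strands, and the marked matches do not overlap. The Cdk4 window held 4 copies of CACGTG, a number reached by 7 of 32851 promoter windows of the same length (0.0213%), and the Cdk6 window held 1. CACGTG occurred in 6.02% of all windows and TTTNNCGC in 4.28%. Neither motif occurred in the windows of the other 5 matched genes. The Gli core GACCACCCA (0.225% of windows) and the GATA site AGATAA (9.99% of windows) matched in none of the 7 genes' windows. A match describes letters in a window and does not show binding.

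Ccne1, cyclin E1 (chr7:38097984-38107534, minus strand), was at 76.0 CPM in the posterior, 82.8 CPM in the middle, 94.5 CPM in the anterior and 91.6 CPM in the outflow tract at E10.5. At E9.5 it was at 93.9 CPM (88.8 to 99.2) in the posterior, 141 CPM (123 to 160) in the middle and 85.6 CPM in the anterior. The E9.5 middle library was the highest of the 7, with an interval that overlapped only those of the small E10.5 anterior and outflow tract libraries.

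Ccne2, cyclin E2 (chr4:11191351-11204779, plus strand), was also highest in the E9.5 middle library. It had 18.3 CPM in the posterior, 27.4 CPM in the middle, 19.7 CPM in the anterior and 20.3 CPM in the outflow tract at E10.5. At E9.5 it had 28.9 CPM (26.1 to 31.9) in the posterior, 49.97 CPM (39.6 to 62.2) in the middle and 38.6 CPM in the anterior. Posterior over middle gave a ratio of 0.666 (0.457 to 0.972) at E10.5 and 0.578 (0.453 to 0.744) at E9.5.

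The inhibitors were measured with few counts. Cdkn1b, the Cip/Kip inhibitor linked to cell cycle exit (chr6:134920401-134925513, plus strand), had 28.1 CPM in the posterior, 33.8 CPM in the middle, 23.6 CPM in the anterior and 56.0 CPM (27.9 to 100.1) in the outflow tract at E10.5. At E9.5 it had 9.01 CPM (7.49 to 10.8) in the posterior, 5.62 CPM (2.57 to 10.7) in the middle and 13.9 CPM in the anterior. Each E10.5 library was above each E9.5 library in its value, and the intervals of the posterior and middle libraries did not overlap across stages.

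Cdkn1a, the Cip/Kip inhibitor induced by Trp53 (chr17:29090976-29100727, plus strand), had 15.7 CPM in the posterior, 6.86 CPM in the middle, 0 counts in the anterior and 25.4 CPM in the outflow tract at E10.5. At E9.5 it had 17.0 CPM in the posterior, 19.99 CPM in the middle and 13.1 CPM in the anterior. Its counts sat in few cells. All 5 outflow tract counts came from 1 cell, and the 5 cells richest in Cdkn1a held 92.9% of its counts in the E10.5 middle library, 96.9% in the E9.5 middle and 94.1% in the E9.5 anterior. In the posterior libraries the 5 richest cells held 38.9% at E10.5 and 26.3% at E9.5. Cdkn1a was found in 0 of 45 E10.5 anterior cells, which allows a share of cells with a UMI of up to 6.67% (3 of 45 cells).

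Cdkn2c, the INK4 inhibitor of Cdk4 and Cdk6 (chr4:109660876-109667189, minus strand), had 27 counts in all 1500 cells. There were 4 in the posterior, 6 in the middle and 0 in the anterior and outflow tract at E10.5, and 15 in the posterior, 1 in the middle and 1 in the anterior at E9.5. It did not pass the filter on low counts, so the tests cover the other 9 genes.

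Position was tested with edgeR's quasi-likelihood test on the sums of the 6 libraries of the positions present at both stages, with stage in the model. The 2 stages are the replicates of a position, and p-values were adjusted by Benjamini-Hochberg over 9825 genes. None of the 9 tested G1 regulators had an adjusted p under 0.05 in any of the 3 contrasts. Over all genes the test called 0.295% between posterior and anterior (0.153% higher, 0.142% lower), 0% between middle and anterior, and 0.193% between posterior and middle (0.142% higher, 0.0509% lower). At an unadjusted p under 0.05 the numbers of genes were 594, 345 and 378 in those contrasts, and DESeq2 called 54, 4 and 33 genes and none of the G1 regulators. The fitted log2 fold of posterior over anterior was 1.13 ± 0.33 (SE) for Cdk6, with an adjusted p of 0.450, and 0.90 ± 0.32 for Ccnd2, with an adjusted p of 0.662. Cdk6 gave a log2 fold of 1.11 ± 0.34 for middle over anterior (adjusted p = 1.00). Ccne2 gave -0.77 ± 0.27 for posterior over middle (adjusted p = 0.977). The remaining posterior over anterior log2 folds lay between -0.42, for Ccne2 and for Cdkn1b, and 0.90 for Cdkn1a, and the median of the 9 was 0.07 against 0.02 over all genes.

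Whether Ccnd2 was called between positions turned on single libraries. Without the E9.5 anterior library the posterior over anterior log2 fold was 1.56 ± 0.37 with an adjusted p of 0.0212, and without the E9.5 posterior library it was 1.36 ± 0.29 with an adjusted p of 0.00493. Without the E10.5 anterior library it was 0.42 and without the E10.5 posterior library 0.46, with adjusted p of 0.982 and 0.651. Each of these 4 fits leaves 1 library at a position, which is assumed to vary like the other positions. Without any filter on low counts it was 0.99 ± 0.26 with an adjusted p of 0.0143. Of the 45 tested genes of a wider list of G1 and S entry regulators, none passed in any of the 3 contrasts. The repressor E2f7 and the retinoblastoma family gene Rbl1 had the highest log2 folds for posterior over anterior, at 0.78 ± 0.71 for E2f7 and 0.86 ± 0.62 for Rbl1 (adjusted p = 0.924 and 0.909). The lowest were those of the Ink4 family inhibitor gene Cdkn2a, at -3.05 ± 1.26, and the antiproliferative gene Btg2, at -1.38 ± 0.70 (adjusted p = 0.748 and 0.855). Cdkn2a was also the lowest for posterior over middle, at -4.32 ± 1.16 (adjusted p = 0.449). It had 1 count in the posterior and 0 in the middle and anterior at E10.5, and 9 in the posterior, 32 in the middle and 9 in the anterior at E9.5, so its order of positions comes from E9.5.

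Stage could not be tested, since each stage is 1 sample. The E10.5 over E9.5 ratio was taken at each of the 3 shared positions, and a gene was counted when the mean of the 3 log2 ratios passed a 2-fold change with 1 direction at all 3 positions. Over the 10136 genes with at least 50 counts, 15.3% passed, 7.55% higher and 7.72% lower at E10.5. Of the 9 G1 regulators with enough counts, 1 passed. Cdkn1b was higher at E10.5, with a ratio of 3.12 (2.37 to 4.11) in the posterior, 6.01 (2.99 to 13.7) in the middle and 1.70 (0.553 to 4.47) in the anterior, and a mean log2 ratio of 1.67. Counts behind these ratios at E10.5 and E9.5 were 97 and 123 in the posterior, 69 and 9 in the middle, and 6 and 18 in the anterior.

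Cdk4 was lower at E10.5 by a similar amount at all 3 positions. The ratio was 0.698 (0.671 to 0.726) in the posterior, 0.725 (0.681 to 0.770) in the middle and 0.786 (0.681 to 0.905) in the anterior, with a mean log2 ratio of -0.44. Cdk6 had a ratio of 1.56 (1.32 to 1.83) in the posterior, 0.975 (0.710 to 1.34) in the middle and 1.28 (0.427 to 3.20) in the anterior.

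Ccnd1 and Ccnd2 had ratios on opposite sides of 1 at different positions. Ccnd2 had a ratio of 1.44 (1.37 to 1.51) in the posterior, 0.901 (0.807 to 1.01) in the middle and 0.540 (0.394 to 0.726) in the anterior. Ccnd1 had 1.36 (1.23 to 1.51) in the posterior, 0.778 (0.645 to 0.937) in the middle and 0.862 (0.546 to 1.31) in the anterior. Ccnd3 was below 1 at all 3 positions, with a mean log2 ratio of -0.36. Both E cyclins were below 1 in the posterior and middle, and Ccne2 also in the anterior. The Ccne2 ratios were 0.633 (0.477 to 0.827) in the posterior, 0.549 (0.383 to 0.782) in the middle and 0.510 (0.159 to 1.27) in the anterior, a mean log2 ratio of -0.83; with every cell thinned to 4500 UMIs it was -1.80, and without cells with markers of other types -1.19, each past 2-fold. The anterior part of that thinned mean rests on 1 of 40 E10.5 cells with a Ccne2 UMI, at 5.56 CPM against 49.4 CPM at E9.5. Thinned levels at E10.5 and E9.5 were 14.6 and 26.0 CPM in the posterior, and 26.0 and 69.2 CPM in the middle. Ccne1 had 0.809 (0.706 to 0.925) in the posterior, 0.589 (0.480 to 0.722) in the middle and 1.10 (0.679 to 1.73) in the anterior. Cdkn1a had 0.921 (0.672 to 1.24) in the posterior and 0.343 (0.169 to 0.662) in the middle; in the anterior, with 0 counts at E10.5, it was at least 1.11-fold lower against a floor of 3 counts.

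**Figure D2:**
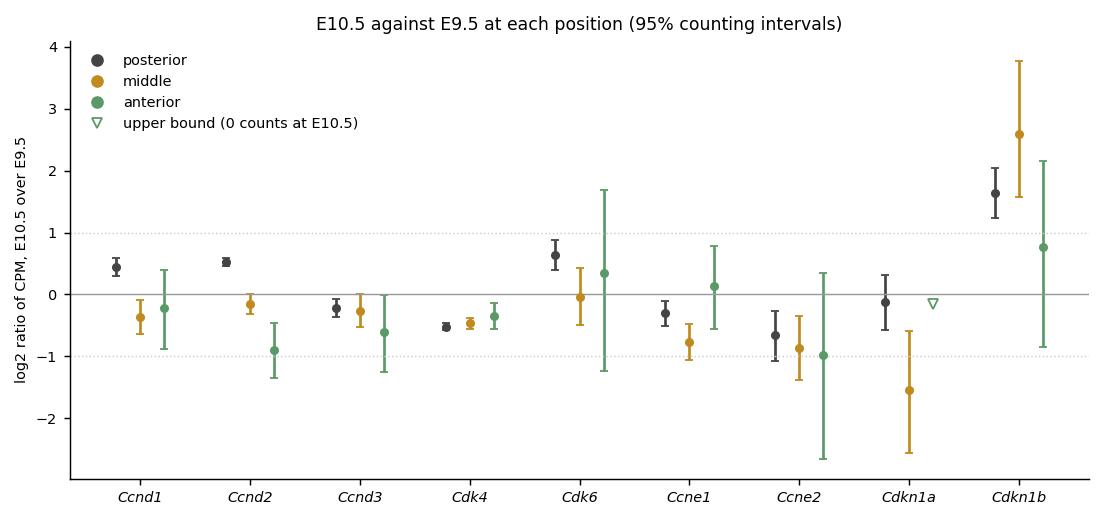
The log2 ratio of CPM at E10.5 over E9.5 (vertical axis) for the 9 G1 regulators with a ratio at each position, coloured by position, with exact 95% counting intervals; dotted lines mark a 2-fold change and the open triangle an upper bound. Cdkn1b lies above 0 at all 3 positions, Cdk4 below 0 at all 3, and Ccnd1 and Ccnd2 above 0 in the posterior only.

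For the lists that follow, the share past 2-fold over all genes was 15.3%, with 7.55% higher and 7.72% lower at E10.5. Of the 45 genes of the wider list of G1 and S entry regulators with enough counts, 1 was past 2-fold higher at E10.5 and 7 lower, with a median log2 ratio of -0.27 against -0.06 over all genes. The higher one was Cdkn1c, the third Cip/Kip inhibitor, at 1073 CPM in the posterior at E10.5 against 438 CPM at E9.5, a mean log2 ratio of 1.13. The lower ones were E2f1 and E2f4, which bind retinoblastoma proteins, the cyclin E kinase Cdk2, the growth regulator Mycn, Ccng1, and the replication licensing genes Mcm5 and Cdt1. Of 20 S phase genes, 0 were past 2-fold higher and 3 lower, and of 20 G2 and M phase genes 7 were higher and 0 lower, with medians of -0.32 and 0.72. Markers of other cell types differed with stage as well. Epithelium markers summed to 19.7 CPM in the anterior at E10.5 against 1457 CPM at E9.5, cardiomyocyte markers to 285 CPM in the posterior at E10.5 against 2892 CPM at E9.5, and erythroid markers to 5226 CPM in the middle at E10.5 against 33.7 CPM at E9.5. The part of these markers, of depth and of sex in the stage ratios was not tested.

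Posterior cells were next split by at least 1 Gli1 UMI. Gli1 was detected in 42 of 560 posterior cells at E10.5 and 149 of 418 at E9.5. The median posterior cell had 5388.5 UMIs at E10.5 and 31257 at E9.5, so detection was not an equal cut at both stages. With every cell thinned to equal depth, Gli1 was found in 4.67% of posterior cells at E10.5 and 6.59% at E9.5. Its posterior level was 13.9 CPM at E10.5 and 16.9 CPM at E9.5. In the anterior Gli1 was detected in 0 of 45 cells at E10.5, which allows a share of cells with a UMI of up to 6.67%, and in 4 of 54 at E9.5. Detected cells had a median of 6030 UMIs against 5374.5 in undetected cells at E10.5, and 32806 against 30202 at E9.5. Sums of detected and undetected cells of each stage entered edgeR's quasi-likelihood test with stage in the model (4 sums, 1 residual degree of freedom). The 2 sums of a stage share a library, so the spread between them is not that between embryos. In the Gli1 fit the spread of each gene was set wholly by a trend over all genes (infinite prior degrees of freedom). A difference between the ratios of a gene at the 2 stages therefore did not raise its p-value.

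The test called 2 of the 9 G1 regulators, against 2.53% of 11221 genes, of which 0.455% were higher and 2.08% lower in detected cells. Ccnd2 was higher in cells with Gli1, at 723 CPM in detected cells against 654 CPM in undetected cells at E10.5, and at 576 CPM in detected cells against 379 CPM in undetected cells at E9.5. The ratio was 1.11 (0.953 to 1.28) at E10.5 and 1.52 (1.45 to 1.60) at E9.5, so the interval at E10.5 includes 1 and lies apart from that at E9.5. The fitted log2 fold was 0.41 ± 0.09 (adjusted p = 0.000372). Cdkn1a was lower in cells with Gli1, at 7.02 CPM in detected cells (2 counts) against 16.4 CPM in undetected cells (52 counts) at E10.5, and at 9.98 CPM against 21.8 CPM at E9.5. Its ratio was 0.427 (0.0504 to 1.62) at E10.5 and 0.459 (0.333 to 0.624) at E9.5, and its fitted log2 fold -1.13 ± 0.27 (adjusted p = 0.00165). Neither gene was called with DESeq2 (adjusted p = 1.00 for each) or when every cell was first thinned to 4500 UMIs, where the Ccnd2 log2 fold was 0.52 ± 0.17 (adjusted p = 0.761).

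Markers of other cell types moved with the split. The 7 cardiomyocyte markers summed to 73.7 CPM in detected against 304 CPM in undetected cells at E10.5, and to 914 CPM against 4232 CPM at E9.5. The 9 endoderm or epithelium markers summed to 270.3 CPM in detected against 464 CPM in undetected cells at E10.5, and to 506 CPM against 855 CPM at E9.5. Posterior cells with neither kind of marker (fewer than 3 of the epithelium and fewer than 4 of the cardiomyocyte markers after thinning to 4500 UMIs) were therefore read on their own. In them Cdkn1a had 17 counts in detected against 9 in undetected cells at E9.5, or 3.71 CPM against 1.65 CPM with a ratio of 2.24 (0.944 to 5.70), and 0 against 5 counts at E10.5. That is not lower in Gli1-detected cells at E9.5, and too few counts remained for the gene to pass the filter and be tested. Ccnd2 in these cells had 712 CPM in detected against 695 CPM in undetected cells at E10.5, a ratio of 1.02 (0.868 to 1.20), and 661 CPM against 480.2 CPM at E9.5, a ratio of 1.38 (1.30 to 1.45). Its fitted log2 fold was then 0.31 ± 0.08 (adjusted p = 0.0711).

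The other 7 tested G1 regulators were not called in the Gli1 split. Cdk6 had 77.2 CPM in detected against 59.7 CPM in undetected cells at E10.5, and 46.6 CPM against 34.3 CPM at E9.5, with a log2 fold of 0.42 ± 0.16 (adjusted p = 0.240). In cells with neither kind of marker its ratio was 1.51 (0.918 to 2.37) at E10.5 and 1.54 (1.25 to 1.90) at E9.5, and its log2 fold was 0.61 ± 0.16 (adjusted p = 0.0597). Ccnd3 had a log2 fold of -0.24 ± 0.12 (adjusted p = 0.528). Cdk4, Ccnd1, Ccne1, Ccne2 and Cdkn1b had log2 folds between -0.11 and 0.12. The wider list had 1 of 46 genes called, Mycn, which was higher in detected cells with a log2 fold of 0.53 ± 0.12 (adjusted p = 0.000966). Of 11 Hedgehog pathway genes other than Gli1, 4 were called higher and 0 lower: the receptor Ptch1, the ligand-binding inhibitor Hhip, and the target genes Foxf1 and Foxf2. Of the phase genes, the mitotic kinases Plk1 and Aurka were called higher and none lower. The number of genes called higher in the Gli1 split depended on the method. Over all genes it was 51 here, 60 with library totals and 11 with limma. It was 2 without cells with other-type markers, 1 with thinned cells and 0 with DESeq2. None of the genes named here was therefore called higher with DESeq2.

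**Figure D3:**
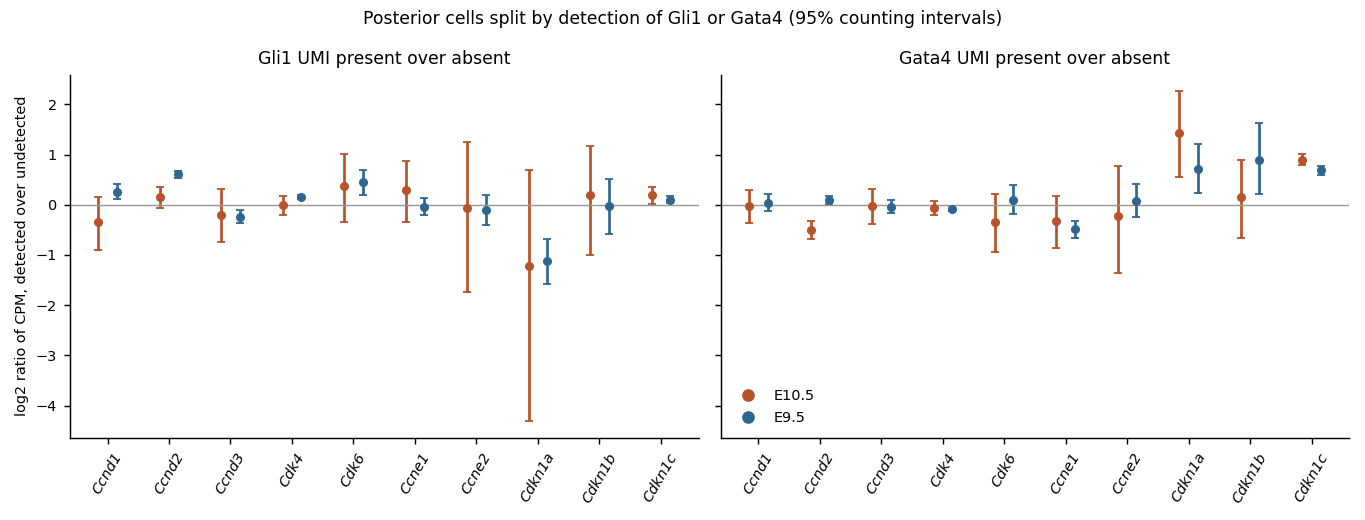
The log2 ratio of CPM in posterior cells with a UMI of Gli1 (left) or Gata4 (right) over those without one, for 9 G1 regulators and Cdkn1c, at E10.5 and E9.5, with exact 95% counting intervals. In the Gli1 split Ccnd2 lies above 0 and Cdkn1a below 0 at both stages, though at E10.5 both intervals include 0; in the Gata4 split Cdkn1c lies above 0 at both stages and Ccnd2 on opposite sides of 0.

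Gata4 was detected in 83 of 560 posterior cells at E10.5 and 276 of 418 at E9.5. These shares also depend on depth, and with every cell thinned to equal depth they were 11.5% at E10.5 and 25.4% at E9.5. The posterior level of Gata4 was 29.6 CPM at E10.5 and 79.8 CPM at E9.5. The same test called none of the 9 G1 regulators, against 0.902% of 10870 genes (0.653% higher and 0.248% lower in detected cells); 871 genes had an unadjusted p under 0.05, and DESeq2 called 16 genes and none of the G1 regulators. Ccne1 was at 63.0 CPM in detected against 78.8 CPM in undetected cells at E10.5, and at 84.0 CPM against 118 CPM at E9.5. Its ratio was 0.799 (0.553 to 1.13) at E10.5 and 0.711 (0.633 to 0.798) at E9.5, and its log2 fold -0.48 ± 0.13 (adjusted p = 0.171). The Ccne1 ratio with every cell thinned before the split was 0.697 (0.362 to 1.23) at E10.5 and 1.04 (0.725 to 1.48) at E9.5. The E9.5 ratio of Ccne1 was thus not below 1 at equal depth. Ccnd2 was at 491 CPM in detected against 697 CPM in undetected cells at E10.5, a ratio of 0.704 (0.622 to 0.795). At E9.5 it was at 467 CPM in detected against 438 CPM in undetected cells, a ratio of 1.07 (1.01 to 1.13), and the log2 fold over both stages was -0.23 ± 0.13 (adjusted p = 0.755). With every cell thinned before the split, the Ccnd2 ratio was 0.566 (0.455 to 0.697) at E10.5 and 1.02 (0.870 to 1.19) at E9.5.

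The inhibitors Cdkn1a and Cdkn1b were not called either. Cdkn1a was at 32.3 CPM in Gata4-detected against 12.0 CPM in undetected cells at E10.5 and at 19.1 CPM against 11.7 CPM at E9.5, with a log2 fold of 0.90 ± 0.25 (adjusted p = 0.192). Leaving out cells marked as doublets gave an adjusted p of 0.0377, and leaving out the filter on low counts one of 0.0218. Cdkn1b was at 30.7 CPM against 27.6 CPM at E10.5 and at 10.4 CPM against 5.59 CPM at E9.5, with a log2 fold of 0.49 ± 0.28 (adjusted p = 0.747). Epithelium markers summed to 780 CPM in detected against 375 CPM in undetected cells at E10.5 and to 673 CPM against 816 CPM at E9.5. Cardiomyocyte markers summed to 205 CPM against 303 CPM at E10.5 and to 3895 CPM against 415 CPM at E9.5. Without the marked cells too few Cdkn1a counts remained for the test. In posterior cells with neither kind of marker, Cdkn1a had 0 counts in 60 detected against 5 in 364 undetected cells at E10.5, too few for a direction. At E9.5 it had 21 counts in 192 detected against 5 in 114 undetected cells, or 3.15 CPM against 1.49 CPM. That E9.5 ratio was 2.11 (0.774 to 7.16), with an interval that includes 1.

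Of the wider list, 1 of 45 genes was called in the Gata4 split. Cdkn1c was at 1730.5 CPM in detected against 929 CPM in undetected cells at E10.5 and at 491 CPM against 306 CPM at E9.5, with a log2 fold of 0.74 ± 0.08 (adjusted p = 0.00290). In cells with neither kind of marker its ratio was 2.10 (1.94 to 2.28) at E10.5 and 1.52 (1.41 to 1.63) at E9.5. Over all posterior cells, the 5 richest of the detected cells held 27.6% of their Cdkn1c counts at E10.5 and 10.2% at E9.5. The share of cells with a Cdkn1c UMI was 95.2% in detected against 94.8% in undetected cells at E10.5, and 97.1% against 94.4% at E9.5. Of 20 S phase genes 19 had a log2 fold below 0, with a median of -0.21 against -0.01 over all genes, and none was called. Of 20 G2 and M phase genes 13 had a log2 fold above 0 and 7 below, with a median of 0.07, and none was called.

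Because markers of other cell types moved with both splits, the G1 regulators were read by marker class within the posterior libraries, as a description with no test. Cdkn1a was concentrated in cells with epithelium markers. It had 132 CPM (97.2 to 175) in the 44 such cells against 1.87 CPM (0.606 to 4.36) in the 424 cells with neither kind at E10.5. At E9.5 it had 122 CPM (105 to 140) in 49 such cells against 2.59 CPM (1.69 to 3.80) in 306. These cells were 9.34% of thinned posterior cells at E10.5 and 12.0% at E9.5, and held 90.6% of the Cdkn1a counts at E10.5 and 87.4% at E9.5. In the E10.5 middle library the level was 47.9 CPM in 14 cells with epithelium markers against 1.83 CPM in 277 cells with neither. At E9.5 the CPM did not keep that order outside the posterior: the middle had 16.5 CPM against 24.6 CPM, and the anterior 11.6 CPM against 19.5 CPM. The counts in cells with neither kind came from 2 cells in each of these libraries, and by share of cells with a UMI the middle had 20% of epithelium-marker cells against 5.26% of cells with neither, and the anterior 12.1% against 11.8%. The E10.5 outflow tract did not keep the order either. It had 0 counts in 4 cells with epithelium markers, against 5 counts from 1 of 27 cells with neither.

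Ccnd2 ran the other way. It had 472 CPM in the epithelium-marker cells against 697 CPM in cells with neither at E10.5, a ratio of 0.678 (0.577 to 0.793), and 279 CPM against 563 CPM at E9.5, a ratio of 0.497 (0.451 to 0.546). In the 53 cells with cardiomyocyte markers at E9.5 Ccnd2 stood at 72.9 CPM, a ratio to cells with neither of 0.130 (0.109 to 0.153). The few such cells of the other E9.5 libraries did not show this, with 659 CPM in 3 cells against 518 CPM in the middle and 660 CPM in 4 cells against 430 CPM in the anterior. In the 53 posterior cells Cdk4 had a ratio of 0.792 (0.755 to 0.831), Ccne1 0.658 (0.542 to 0.793), Cdk6 0.560 (0.396 to 0.775) and Ccnd1 0.783 (0.660 to 0.925). Cdkn1b had a ratio of 2.00 (1.25 to 3.14) there and Cdkn1c one of 1.92 (1.80 to 2.04).

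**Figure D4:**
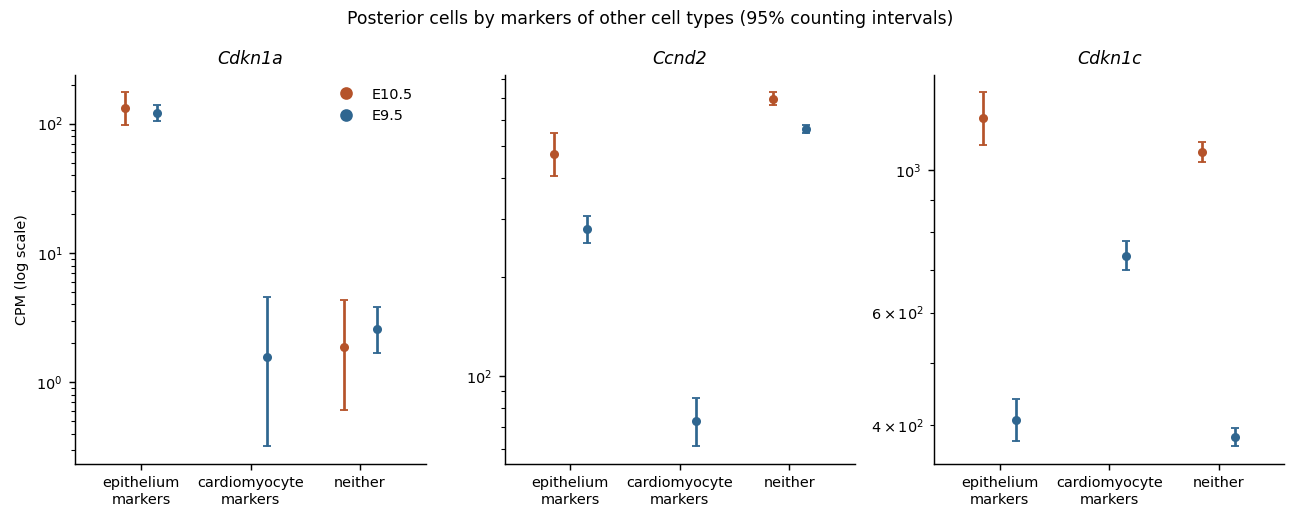
CPM on a log scale (vertical axes) of Cdkn1a, Ccnd2 and Cdkn1c in posterior cells with epithelium markers, with cardiomyocyte markers or with neither, at E10.5 and E9.5, with exact 95% counting intervals; the class of cardiomyocyte-marker cells is shown at E9.5 alone, since E10.5 had 3 such cells. Cdkn1a is at 132 CPM at E10.5 and 122 CPM at E9.5 in cells with epithelium markers and below 3 CPM in the other classes shown.

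Within posterior cells the G1 regulators were set against summed S phase genes and summed G2 and M phase genes, after thinning every cell to 4500 UMIs (471 cells at E10.5, 410 at E9.5). Spearman's rho is a description over cells that share a library, and most of these genes have few counts per cell. Both E cyclins went with the S phase sum and against the G2 and M phase sum. For Ccne1, rho with the S phase sum was 0.22 at E10.5 and 0.21 at E9.5, and with the G2 and M phase sum -0.30 at E10.5 and -0.20 at E9.5. For Ccne2 the values were 0.26 and 0.14 with S phase and -0.20 and -0.17 with G2 and M phase. Ccnd2 had 0.18 and 0.16 with S phase, and Ccnd1 -0.26 and -0.11 with G2 and M phase. Cdkn1b had -0.09 and -0.11 with S phase and 0.18 and 0.03 with G2 and M phase. The 2 sums themselves had a rho of -0.47 at E10.5 and -0.31 at E9.5.

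**Figure D5:**
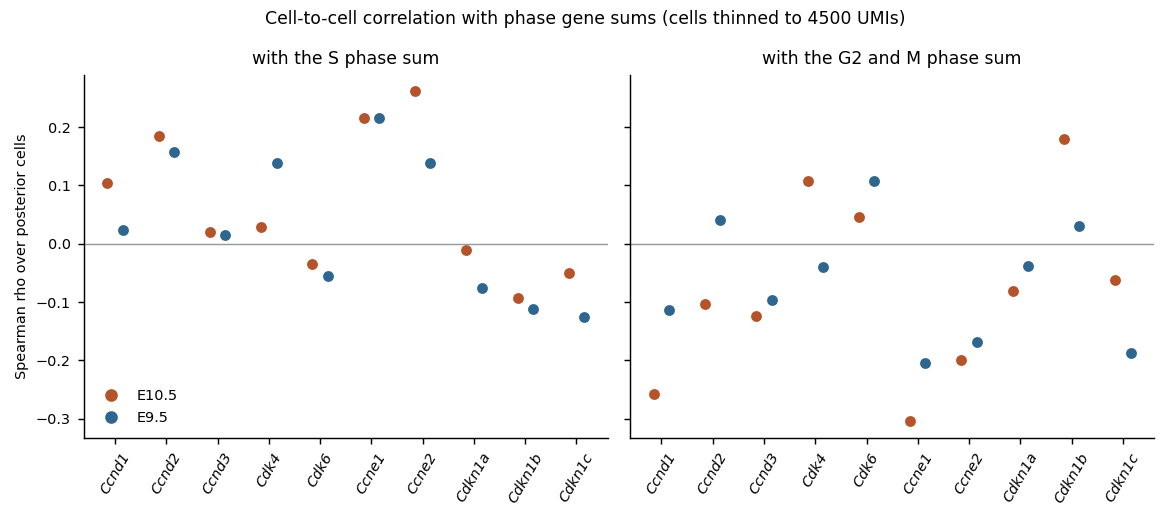
Spearman's rho (vertical axis) of each gene with the summed S phase genes (left) and the summed G2 and M phase genes (right) over posterior cells thinned to 4500 UMIs, at E10.5 and E9.5. Ccne1 and Ccne2 lie above 0 with the S phase sum and below 0 with the G2 and M phase sum at both stages.

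Genes with the most similar pattern were sought for the 6 regulators with at least 30 counts in at least 5 of the 7 libraries, by Pearson's r over the 7 libraries on log2(CPM + 5) minus the mean of the stage, among 4506 genes. Ccnd2 was closest to Ddb1 (r = 0.998) and Ppm1a (0.997). Ccnd1 was closest to Trmt10a (0.989), Fmc1 (0.985) and Aqr (0.981). Ccnd3 was closest to Usp22 (0.998), Cdc20 (0.994) and 6030458C11Rik (0.994). Cdk4 was closest to Tctex1d2 (0.983), Cinp (0.962) and Phb2 (0.955). Ccne1 was closest to Dusp11 (0.960), Ddx21 (0.959) and Rps27l (0.957), and Ccne2 to Hoxb2 (0.958), Nudt4 (0.955) and Aaed1 (0.943). With 7 points that share 2 stages, and 4506 genes searched, these are the highest of many values and carry no test.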

How the data were processed

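The deposited matrices, 1 for E10.5 and 1 for E9.5, hold unnormalized UMI counts. Per the labels' protocols, trypsin was used to free the cells, libraries were made on a 10x Genomics Chromium controller, and NextSeq reads were mapped against the mm10 mouse build. Cell Ranger 3.0 and Seurat were used, per the submitters' processing notes. Filters on cells and the annotation version were not given in the sources used here.

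No cell was removed from the main results. Counts were summed per position library. The quasi-likelihood test of edgeR 4.0.16 (R 4.3.3), with TMM factors and its default filter on low counts, was fitted on 6 libraries for position, with 2 residual degrees of freedom, and on 4 sums for each detection split, with 1. The common coefficient of variation was 0.217 for position, 0.0539 for the Gli1 split and 0.0943 for the Gata4 split. Standard errors were derived as the size of the log2 fold over the root of its F statistic. Alternatives used DESeq2 1.42.0, limma 3.58.1 on mean log2(CP10K + 1), library totals, no filter on low counts, no stage term, cells thinned to 4500 UMIs (8 cells left out at E9.5, 134 at E10.5), cells with other-type markers left out (counted before or after thinning, the second added after seeing the data), and each library left out. Scrublet in scanpy 1.11.5 was not usable in libraries under 100 cells, where it marked up to 100% of cells; its 34 marks in the 3 larger libraries were used in 1 alternative. Gene positions are from GENCODE on GRCm38 and promoters from RefSeq on GRCm38.p6.

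All 10 members were named whatever their values; genes of the other lists could be named when they passed the test or were among the 2 highest or 2 lowest folds, and the closest 3 genes by Pearson's r were named per eligible member, except 1 that is not reported here. The members and lists were chosen with earlier results of these data known.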

Additional observations from a re-analysis of the deposited data

Results flagged for a closer look

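Ratios on opposite sides of 1, each with an interval that excludes 1, were seen for 2 D cyclins; none of these differences was tested, since each rests on 1 sample per stage. For Ccnd1, posterior over middle was 1.33 (1.13 to 1.56) at E10.5 and 0.756 (0.658 to 0.872) at E9.5. The same libraries read across stages gave an E10.5 over E9.5 ratio for Ccnd1 of 1.36 (1.23 to 1.51) in the posterior and 0.778 (0.645 to 0.937) in the middle. For Ccnd2 the E10.5 over E9.5 ratio was 1.44 (1.37 to 1.51) in the posterior and 0.540 (0.394 to 0.726) in the anterior. The Ccnd2 ratio of Gata4-detected over undetected posterior cells was 0.704 (0.622 to 0.795) at E10.5 and 1.07 (1.01 to 1.13) at E9.5. In posterior cells with neither epithelium nor cardiomyocyte markers, that Gata4 ratio of Ccnd2 was 0.655 (0.564 to 0.756) at E10.5 and 1.29 (1.22 to 1.37) at E9.5.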

How the results depend on the processing

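No G1 regulator was called for middle against anterior under any alternative run. For posterior against anterior, 1 (Ccnd2) was called without the filter on low counts, and leaving out 1 library in turn gave 0 to 1; for posterior against middle that range was 0 to 1, with Ccnd2 called without the E9.5 posterior library (log2 fold 0.99, adjusted p = 0.0329), where the 1 posterior library left is assumed to vary like the other positions. The 2 calls of the Gli1 split became 0 with DESeq2, with thinned cells and without cells with other-type markers, counted before or after thinning, and 1 (Ccnd2) with limma; both calls held with library totals, without the filter and without doublet marks. Each stage alone allowed no test. The Gata4 split had 1 call (Cdkn1a) without the filter and 1 without doublet marks. Cdkn1c was called in the Gata4 split under every alternative with a test, with log2 folds of 0.47 to 0.79. For stage, 2 genes (Ccne2, Cdkn1b) were past 2-fold with thinned cells and 2 without cells with other-type markers, 3 (also Cdkn1a) when those markers were counted after thinning, and leaving out a position gave 1 to 2. With thinned cells, Ccne2 was found in 1 of 40 E10.5 anterior cells.

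Fitted log2 folds that changed sign were of values that were not called; the cause was not tested. The called Cdkn1a of the Gli1 split fell below the filter on low counts without cells with other-type markers, and its E9.5 ratio was then 2.24 (markers counted after thinning), against 0.459 in all cells. The posterior over anterior log2 fold of Cdk4 was 0.048 with library totals, 0.056 without the filter, 0.080 with limma, 0.035 with thinned cells, and -0.13 to 0.060 with a library left out. With a library left out, that log2 fold ranged from -0.19 to 0.48 for Ccnd1, from -0.078 to 0.34 for Ccnd3, from -0.48 to 0.13 for Ccne1 and from -0.88 to 0.37 for Cdkn1b. It was -0.16 for Ccnd3 without cells with other-type markers, 0.0021 for Ccne1 with limma, and -2.27 for Cdkn1a without cells with other-type markers after thinning. In the Gata4 split Cdkn1b was at -0.61 with thinned cells.

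Over all genes, posterior against anterior gave 29 calls, 260 without the filter, 54 with DESeq2, 0 without a stage term, 0 with limma, 55 without cells with other-type markers, and 95 to 332 with a library left out; posterior against middle gave 19, 178, 33, 0, 0, 34, and 37 to 231. The Gli1 split gave 284 calls, 20 with DESeq2, 12 with thinned cells, 13 and 93 without cells with other-type markers (before and after thinning) and 21 with limma; the Gata4 split gave 98, 16 with DESeq2, 20 with library totals, 302 without the filter, 44 with thinned cells, 270 without doublet marks and 24 with limma. The labels carry no replicate numbers, so no pairing by replicate was possible. Stage was a term of the position and detection fits, which thus compared libraries or sums within a stage. Depth limits the E10.5 anterior and outflow tract libraries most, where 3 counts are 11.8 and 15.3 CPM.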
